A study of Mus musculus with 16 samples.

Results

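The Mir30 genes and Nfyc were followed in ventricles of the growing mouse heart. The set held 7 of the 53801 genes in the count table: Mir30a, Mir30b, Mir30c-1, Mir30c-2, Mir30d and Mir30e, which give the miRNAs of the miR-30 family, and Nfyc, the protein-coding gene that holds Mir30c-1 and Mir30e. They were taken by gene identifier and not by their counts, though the set was chosen with earlier results of these data known. Ventricles came from C57BL/6JOlaHsd pups, male and female, at P01, P04, P09 and P23, where P01 stands for postnatal day 1. Each day had 4 libraries, which the study describes as 4 animals. The labels name no treatment or mutation and do not give the sex of each pup. The pups up to P09 had only their mother's milk, whereas those at P23 also had solid mouse food, so that age and diet cannot be told apart at P23.

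A miRNA is cut from a hairpin in a longer transcript, first by Drosha and then by Dicer, and an Argonaute protein carries 1 strand of it to matching sites in mRNAs. The seed, which is bases 2 to 8 of the mature miRNA, sets most of this matching, so that family members with a common seed share many targets. The miR-30 family is abundant in heart muscle, where it is known for targets in connective tissue growth, autophagy and calcineurin signaling. Mir30c-1 and Mir30e lie within the NFYC gene in mouse and human. Nfyc encodes the C subunit of NF-Y, a trimer with Nfya and Nfyb that binds the CCAAT box and is known to drive genes of the G2 and M phases of the cell cycle.

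The genes lie in 3 pairs in the GRCm38.p6 build. Mir30a (ENSMUSG00000065405) spans bases 23272269 to 23272339 of chromosome 1, on the plus strand. Mir30c-2 (ENSMUSG00000065567) spans bases 23291701 to 23291784 of the same strand, 19361 bases further. On chromosome 15, Mir30b (ENSMUSG00000065476) spans 68337415 to 68337510 and Mir30d (ENSMUSG00000065437) spans 68341208 to 68341289, with 3697 bases between them. On chromosome 4, Mir30c-1 (ENSMUSG00000065490, bases 120769534 to 120769622) and Mir30e (ENSMUSG00000065409, bases 120772606 to 120772697) are 2983 bases apart. Both are on the minus strand within Nfyc (ENSMUSG00000032897, bases 120757435 to 120831579), which is on the minus strand too.

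The RefSeq table of mature miRNAs for GRCm38.p6 held 4 of the 6 Mir30 genes. Their main arms are shown because they carry the seed that defines the family, which is in capitals in each line.
miR-30a-5p: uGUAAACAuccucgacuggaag
miR-30e-5p: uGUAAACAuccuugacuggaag
miR-30c-5p, from Mir30c-1 and Mir30c-2: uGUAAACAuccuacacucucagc
The seed GUAAACA was found in 5 of the 1738 mature entries of that table: in these 4 genes and in Mir384. The other arms are shown because they separate the family into groups by a second seed.
miR-30a-3p: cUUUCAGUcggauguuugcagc
miR-30e-3p: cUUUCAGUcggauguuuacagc
miR-30c-1-3p: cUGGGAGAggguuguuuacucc
miR-30c-2-3p: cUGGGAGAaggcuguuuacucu
Counting from 1 at the 5′ end, miR-30a-5p and miR-30e-5p differ by C13U, with the base of miR-30a first, and their 3p arms differ by G18A. The 5p arms of Mir30c-1 and Mir30c-2 are identical, and their 3p arms differ by G9A, U12C and C22U, with the base of Mir30c-1 first. The hairpins of the Mir30c pair are shown because 1 of these genes took all counts. Their mature arms are in capitals.
Mir30c-1, chr4:120769534-120769622, minus strand: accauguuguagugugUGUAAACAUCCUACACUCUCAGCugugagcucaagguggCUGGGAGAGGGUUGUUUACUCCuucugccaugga
Mir30c-2, chr1:23291701-23291784, plus strand: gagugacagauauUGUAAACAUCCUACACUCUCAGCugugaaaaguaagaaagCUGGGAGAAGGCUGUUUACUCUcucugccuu

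The libraries held 2301587 to 5553530 counts each, of which 61.0% to 74.2% fell on rRNA and mitochondrial genes and 87027 to 172028 counts on miRNA genes. Counts are per gene, so both arms of a hairpin are counted together, and the counts of a protein-coding gene such as Nfyc come from short RNA fragments in a small RNA library. All 9 ventricular cardiomyocyte markers were counted in every library, with a summed level of 8135 to 8990 CPM in P01 libraries, 9687 to 11457 CPM in P04 libraries, 13393 to 15922 CPM in P09 libraries and 15551 to 21645 CPM in P23 libraries. The 5 leukocyte and 5 erythroid markers were each counted in every library too. The leukocyte markers summed to 9.99 to 12.2, 9.41 to 11.4, 8.39 to 13.2 and 30.3 to 35.3 CPM on these days, and the erythroid markers to 349 to 369, 179 to 239, 580 to 790 and 1252 to 1649 CPM. In whole ventricles, fewer cells of a type and less RNA per cell cannot be told apart, and the part of these marker levels in the results below was not tested.

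Of the 7 genes, 5 had counts and 2 were listed at 0 in all 16 libraries. Mir30c-2 and Mir30d had 0 counts in each library, which allows up to 3 counts per library or 0.540 to 1.30 CPM, by counting error alone. For Mir30c-2 this count cannot stand apart from that of Mir30c-1, because reads of the shared 5p arm match both genes and the sources used here do not give how such reads were counted. Across the RefSeq table, 45 sets of genes share a mature sequence. In 18 of these sets at least 1 gene reached 160 counts over the 16 libraries, or 10 per library, and 9 of the 18 sets also held a gene at 0 in every library. A gene at 0 was common among miRNA genes as a whole, since only 620 of the 1197 had any count. Mir21a, Mir126a and Mir22, which are abundant in heart tissue, were likewise listed at 0 in all libraries, and mt-Co2, mt-Co3 and mt-Atp6 had 11, 1 and 39 counts in all, against 286577 counts of mt-Co1. A 0 in this table was therefore not read as absence of the RNA. Mir30f, which lies on the same bases as Mir30e but on the plus strand, had 1 count in each of 2 libraries of P01 and 0 in the others. Mir384 had 13 counts over the 16 libraries.

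Mir30c-1 had the most counts of the 4 counted Mir30 genes, and its counts may include reads of Mir30c-2. Values are given in order of the animal number in the table, which was 1, 5, 6 and 8 at P01 and P23, 1, 3, 4 and 6 at P04 and 2, 3, 4 and 5 at P09. Mir30c-1 had 1332, 1589, 1228 and 1333 normalized counts at P01 and 1265, 1166.5, 1629.7 and 1174 at P04. At P09 it had 803, 702, 942 and 877 normalized counts, and at P23 1999, 2044, 1119 and 1756.5. A normalized count is the count scaled by TMM over all genes to a mean library of 4097638 counts. All 4 libraries of P09 were below every library of the other days, and P23 replicate 6 was the lowest of its day. This library also had the smallest share of its counts on miRNA genes at P23, 2.12%, with 2.39% to 2.96% in the other libraries of P23. Mean normalized counts of Mir30c-1 were 1370.5 ± 153 in P01 libraries, 1309 ± 219 in P04 libraries, 831 ± 103 in P09 libraries and 1730 ± 426 in P23 libraries (SD, n = 4 each).

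Mir30a also had its lowest mean at P09. It had 947, 1132, 772 and 909 normalized counts in P01 libraries, 738, 857, 1312.5 and 873 in P04 libraries, 754, 567, 574 and 645 in P09 libraries, and 1234.5, 1269, 691 and 951 in P23 libraries. The P09 values lay below all those of P01 and overlapped with those of P04 and P23. Mir30b had 667, 718, 504 and 628 normalized counts in P01 libraries, 641, 419, 793 and 586 in P04 libraries, 429, 406, 543 and 521 in P09 libraries, and 708, 1027, 508 and 864 in P23 libraries. Its values at P09 overlapped with those of each other day.

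Mir30e, the neighbor of Mir30c-1 within Nfyc, had far fewer counts, with 46 to 132 raw counts per library. Its normalized counts were 96.6, 87.2, 87.5 and 95.3 in P01 libraries, 84.4, 85.3, 127.5 and 103 in P04 libraries, 72.8, 45.0, 50.1 and 59.9 in P09 libraries, and 134, 121, 87.4 and 81.1 in P23 libraries. As with Mir30c-1, no library of P09 reached the level of any library of another day. How many other miRNA genes show such a gap was not counted, so it is not a trait of these genes. On this scaling 25.7% of the tested miRNA genes fell in P09–P04 and 49.0% in P09–P01.

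Nfyc was counted with only 15 to 48 raw counts per library. Its normalized counts were 24.2, 28.4, 26.8 and 29.3 in P01 libraries, 35.4, 30.7, 22.5 and 25.4 in P04 libraries, 26.5, 16.9, 28.3 and 20.3 in P09 libraries, and 23.1, 23.3, 27.9 and 23.0 in P23 libraries. The libraries of every pair of days overlapped. Mean normalized counts were 27.2 ± 2.27 in P01 libraries, 28.5 ± 5.73 in P04 libraries, 23.0 ± 5.34 in P09 libraries and 24.3 ± 2.39 in P23 libraries (SD, n = 4 each).

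**Figure D1:**
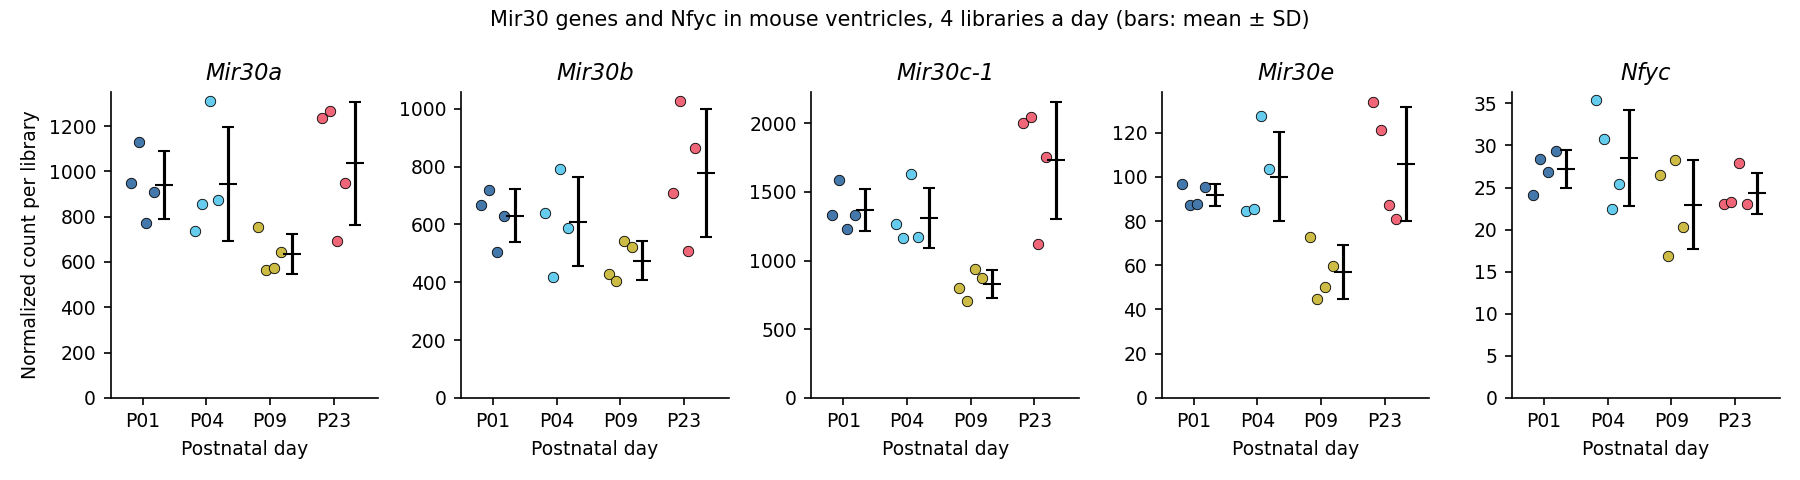
Normalized counts of Mir30a, Mir30b, Mir30c-1, Mir30e and Nfyc (y axes, each with its own scale from 0) at 4 postnatal days (x axis), with 1 point per library and the mean ± SD of 4 libraries beside the points. The P09 libraries of Mir30c-1 (702 to 942) and of Mir30e (45.0 to 72.8) lie below those of the other days on this scaling by all genes, though not when scaled on miRNA genes, and Nfyc stays between 16.9 and 35.4.

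Levels of different Mir30 genes are also given per 100 bases of the precursor gene. The mature arms printed above are 22 or 23 bases long whatever the length of the precursor, so counts need not grow with that length. At P23, Mir30c-1 had 1943 ± 479 normalized counts per 100 bases, Mir30a 1459 ± 382, Mir30b 809 ± 231 and Mir30e 115 ± 27.9 (SD, n = 4 each). The order was the same on the other days. The means of Mir30c-1 and Mir30a per 100 bases were within the SD of Mir30a at P04 and P09. Without the division by length, Mir30c-1 had more counts than Mir30a in every library. Mir30e was the lowest on every day, with 61.9 ± 13.3 normalized counts per 100 bases at P09.

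For the tests, edgeR's quasi-likelihood method was run on all 16 libraries, with p-values adjusted by Benjamini-Hochberg over the 10742 genes that had enough counts. A gene is said to rise or fall at an adjusted p under 0.01, and to be upregulated or downregulated at the thresholds of the study, which also ask for a fold change over 1.8 and, of a miRNA, 300 or more normalized counts on average on at least 1 of the days. All 5 members with counts were tested. The p-values rest on the spread between libraries of the same day, which the study describes as separate animals. This spread was estimated in 1 fit over all 4 days, so libraries outside a comparison also affect its p-values.

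No change of the family was detected between P01 and P04. In the P04–P01 comparison, 0 of the 4 tested Mir30 genes passed the test, where 1.46% of the 206 tested miRNA genes rose and 6.80% fell. The log2 fold changes of the Mir30 genes lay between -0.07 and 0.12, and the smallest adjusted p was 0.717 (edgeR, Mir30e). Their 95% intervals ran no further than -0.44 and 0.48, which leaves out a doubling or a halving. For Nfyc the log2 fold change was 0.07, with a 95% interval of -0.37 to 0.52, and of all tested genes 1.97% rose and 5.05% fell.

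From P04 to P09, Mir30c-1 and Mir30e fell on this scaling, but not when scaled on the miRNA genes (log2 fold changes of -0.12 and -0.27, neither of which passed). In the P09–P04 comparison these were 2 of the 4 tested Mir30 genes, against 25.7% of all tested miRNA genes that fell and 0.971% that rose. Mir30e had a log2 fold change of -0.80 (SE, the standard error, 0.17, edgeR adjusted p = 0.00136). It had 56.9 ± 12.3 normalized counts at P09 and 100.2 ± 20.2 at P04. Mir30c-1 had a log2 fold change of -0.66 (SE 0.17, edgeR adjusted p = 0.00749). Mir30a, with 635 ± 86.8 at P09 and 945 ± 252 at P04, had a log2 fold change of -0.57 and an adjusted p of 0.0343 (edgeR), and Mir30b one of -0.36 with an adjusted p of 0.229 (edgeR). The median log2 fold change of the 4 Mir30 genes was -0.61, beside -0.56 over the 206 tested miRNA genes. None was downregulated at the thresholds of the study, which 5.83% of the tested miRNA genes met. Nfyc had a log2 fold change of -0.28 and did not pass (adjusted p = 0.384 from edgeR), where 3.42% of all tested genes rose and 4.54% fell. The fall of Mir30c-1 was close to the threshold and did not hold without any 1 of 9 libraries (P01 replicates 1 and 8, P04 replicates 1, 4 and 6, and each of P09), at adjusted p-values of 0.0105 to 0.0416 (edgeR), and that of Mir30e did not hold without P04 replicate 4 (adjusted p = 0.0104 from edgeR).

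After P09 all 4 counted Mir30 genes rose on the scaling by all genes, and on that by miRNA genes Mir30c-1 alone passed. In the P23–P09 comparison, 4 of the 4 tested Mir30 genes passed the test upward, against 24.8% of the tested miRNA genes that rose and 19.4% that fell. Mir30c-1 was upregulated at the thresholds of the study, as were 9.22% of the tested miRNA genes. Its log2 fold change was 1.06 (SE 0.17, 95% interval 0.71 to 1.41, edgeR adjusted p = 1.76e-05), a 2.08-fold higher level at P23, without overlap between the libraries. Of the 206 tested miRNA genes, 32 had a higher log2 fold change than Mir30c-1. Mir30e had a log2 fold change of 0.89 (SE 0.17, edgeR adjusted p = 0.000197), also without overlap. It passed the fold change threshold at 1.85-fold but not the mean count of 300.

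Mir30a and Mir30b rose by less. Mir30a averaged 1036 ± 271 normalized counts at P23 and 635 ± 86.8 at P09 (SD, n = 4 each), a log2 fold change of 0.71 (adjusted p = 0.00517 from edgeR). Mir30b averaged 777 ± 221 at P23 and 474 ± 67.4 at P09, also a log2 fold change of 0.71 (adjusted p = 0.00769 from edgeR). Libraries of the 2 days overlapped for both genes, since P23 replicate 6 had 691 normalized counts of Mir30a and 508 of Mir30b. Without that library, Mir30a and Mir30b were upregulated too, with log2 fold changes of 0.86 and 0.87, and 3 members met the thresholds of the study in place of 1. The rise of Mir30a was lost without any 1 of P09 replicates 3, 4 and 5 and P23 replicates 1 and 5, and that of Mir30b without any 1 of P01 replicate 8, P04 replicates 1 and 6, P09 replicates 2, 3 and 5 and P23 replicates 1, 5 and 8. The highest adjusted p, without P23 replicate 5, was 0.0245 for Mir30a and 0.0356 for Mir30b (edgeR). On the scaling by all genes, those of Mir30c-1 and Mir30e passed without any 1 of the 16 libraries, though that of Mir30e was lost on the scaling by miRNA genes (adjusted p = 0.0216 from edgeR). The median log2 fold change of the 4 Mir30 genes was 0.80, beside 0.15 over all tested miRNA genes.

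Nfyc did not pass the test in the P23–P09 comparison. Its log2 fold change was 0.06, with a 95% interval of -0.36 to 0.48 and an adjusted p of 0.918 (edgeR), where 8.29% of all tested genes rose and 7.45% fell. The interval is wide at its 15 to 48 counts per library, and still narrower than the p-value of the test implies.

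The comparisons with P01 share libraries with those above. In P09–P01, Mir30c-1 and Mir30e fell on the scaling by all genes, though not on that by miRNA genes (log2 fold changes of 0.03 and 0.04), against 49.0% of the tested miRNA genes that fell and 4.37% that rose, with log2 fold changes of -0.72 (SE 0.17, edgeR adjusted p = 0.00117) and -0.68 (SE 0.18, edgeR adjusted p = 0.00313). For Mir30a and Mir30b the log2 fold changes were -0.57 (adjusted p = 0.018 from edgeR) and -0.41 (adjusted p = 0.108 from edgeR). None was downregulated at the thresholds of the study, as 12.1% of the tested miRNA genes were. The median of the 4 Mir30 genes was -0.62 and that of all tested miRNA genes -0.80. Nfyc did not pass (log2 fold change -0.21, adjusted p = 0.542 from edgeR), where 10.3% of all tested genes rose and 13.9% fell. The fall of Mir30e did not hold without any 1 of 4 libraries (P01 replicates 1 and 8, P09 replicates 3 and 4), at adjusted p-values of 0.0109 to 0.0169 (edgeR).

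By P23 no change of the family from its level in newborns was detected on the scaling by all genes, while the median tested miRNA was lower. In P23–P01, 0 of the 4 tested Mir30 genes passed the test, where 17.0% of the tested miRNA genes rose and 45.1% fell. The log2 fold changes were 0.14 for Mir30a, 0.30 for Mir30b, 0.34 for Mir30c-1 and 0.21 for Mir30e, with a smallest adjusted p of 0.102 (edgeR, Mir30c-1), and 0 met the thresholds of the study upward, as 5.83% of the tested miRNA genes did. Their median was 0.26, and that of the tested miRNA genes was -0.61. In P23–P04 likewise 0 of the 4 passed on the scaling by all genes, where 17.5% rose and 39.3% fell, and the median was 0.24 beside -0.31 for all tested miRNA genes. Nfyc had a log2 fold change of -0.22 in P23–P04 (adjusted p = 0.412 from edgeR), where 14.5% of all tested genes rose and 15.0% fell. Without P23 replicate 6, Mir30c-1 rose in both, with a log2 fold change of 0.51 in P23–P01 (adjusted p = 0.0052 from edgeR) and of 0.57 in P23–P04 (adjusted p = 0.00243 from edgeR).

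How these courses look depends on what the counts are scaled to. miRNA genes took 3.00% to 3.79% of all counts at P01, 2.90% to 4.54% at P04, 2.26% to 3.12% at P09 and 2.12% to 2.96% at P23. When only miRNA genes entered the TMM factors and the library size, the median log2 fold change of all tested genes moved by 0.73 in P09–P01, 0.52 in P09–P04, 0.58 in P23–P01, 0.39 in P23–P04, 0.21 in P04–P01 and -0.14 in P23–P09. This scaling takes most miRNA genes as unchanged. On it, Mir30c-1 averaged 1027 ± 44.5 in P01 libraries, 1133 ± 149 in P04 libraries, 1045 ± 124 in P09 libraries and 1904 ± 88.8 in P23 libraries (SD, n = 4 each). The dip at P09 was gone, the spread at P23 was smaller, and what remained was a higher level at P23.

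On the miRNA scaling, the log2 fold change of Mir30c-1 in P23–P09 was 0.87 (SE 0.22, edgeR adjusted p = 0.00361), so that Mir30c-1 was upregulated on both scalings. Those of Mir30a, Mir30b and Mir30e were 0.52, 0.52 and 0.74, which kept their direction but did not pass (adjusted p = 0.102, 0.123 and 0.0216 from edgeR). Of all tested genes, miRNA or not, 3.03% rose and 6.16% fell in P23–P09 on this scaling. In P09–P01 the log2 fold changes of the 4 Mir30 genes were 0.03 to 0.34, and none passed, where 37.5% of all tested genes rose and 5.59% fell. In P23–P01 all 4 Mir30 genes passed on this scaling, where 32.6% of all tested genes, miRNA or not, rose and 10.0% fell. The log2 fold changes were 0.70 for Mir30a, 0.86 for Mir30b, 0.89 for Mir30c-1 and 0.78 for Mir30e, and Mir30b and Mir30c-1 met the thresholds of the study. In P23–P04, 1 of the 4 passed on it, Mir30c-1, with a log2 fold change of 0.75 (SE 0.22, edgeR adjusted p = 0.00549). Nfyc passed in none of the 6 comparisons on either scaling.

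**Figure D2:**
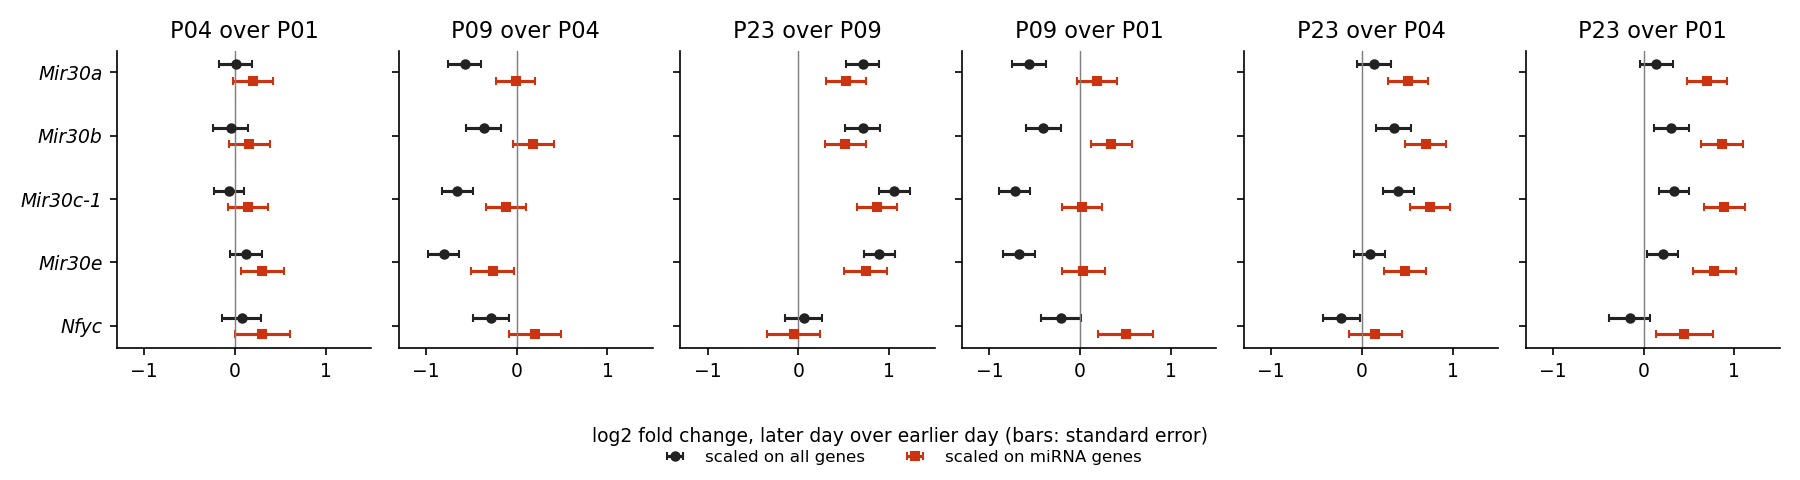
log2 fold changes, later day over earlier day (x axes), of 4 Mir30 genes and Nfyc in 6 comparisons, with SEs as bars. Black circles are scaled on all genes and red squares on the miRNA genes. Mir30c-1 in P23 over P09 is at 1.06 and 0.87, whereas in P09 over P01 it is at -0.72 and 0.03.

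The family as a share of all miRNA counts needs no scaling by other RNA. The Mir30 genes held 2.13% ± 0.0318 of the miRNA counts in P01 libraries, 2.36% ± 0.178 in P04 libraries, 2.25% ± 0.163 in P09 libraries and 2.61% ± 0.222 in P23 libraries (SD, n = 4 each). The 4 libraries of P23 had 2.41% to 2.80%, above the 2.10% to 2.17% of P01 and overlapping with the 2.07% to 2.44% of P09. Within the family the order of the shares was the same in every library. Mir30c-1 held 45.3% ± 1.51 of the family's counts in P01 libraries, 44.4% ± 2.17 in P04 libraries, 41.6% ± 2.36 in P09 libraries and 47.4% ± 1.46 in P23 libraries. Mir30a held 28.4% to 31.9% on average over the 4 days, Mir30b 20.5% to 23.7% and Mir30e 2.84% to 3.39%. These shares are given as a description, with no test.

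**Figure D3:**
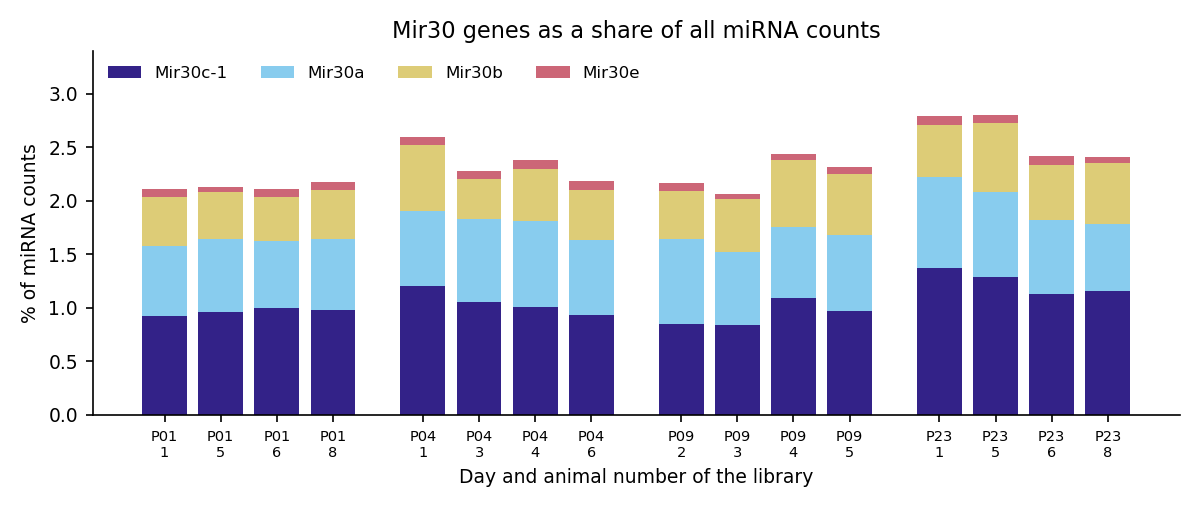
Share of the miRNA counts (y axis, in %) taken by Mir30c-1, Mir30a, Mir30b and Mir30e, stacked, in each of 16 libraries (x axis, day and animal number). The bars reach 2.10% to 2.17% at P01 and 2.41% to 2.80% at P23, and Mir30c-1 is the largest piece in every library.

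Because Mir30c-1 and Mir30e lie within Nfyc, the counts of each were set against those of the host in the same library, a ratio that needs no library size. Mir30c-1 exceeded Nfyc by a log2 ratio of 5.61 ± 0.158 in P01 libraries, 5.50 ± 0.455 in P04 libraries, 5.17 ± 0.238 in P09 libraries and 6.09 ± 0.531 in P23 libraries (SD, n = 4 each, pseudocount 0.5). For Mir30e the log2 ratio was 1.73 ± 0.166, 1.796 ± 0.556, 1.30 ± 0.330 and 2.07 ± 0.427 on these days. Both ratios were lowest at P09 and highest at P23 on average.

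In P23–P09 the log2 ratio of Mir30c-1 over Nfyc was higher by 0.91 (SE 0.29, two-sided exact permutation test, p = 0.0857, adjusted p = 0.429). Raw counts of Mir30c-1 were 86.7, 87.8, 40.1 and 76.4 times those of Nfyc in the P23 libraries, against 30.3, 41.7, 33.3 and 43.3 times in the P09 libraries. P23 replicate 6, at 40.1, was the 1 library that overlapped with P09. The log2 ratio of Mir30e over Nfyc was higher by 0.77 in P23–P09 (SE 0.27, exact permutation p = 0.0286, adjusted p = 0.19), without overlap. In P09–P01 the log2 ratio was lower by 0.44 for Mir30c-1 (log2 difference -0.44, SE 0.14) and by 0.43 for Mir30e (log2 difference -0.43, SE 0.18), both without overlap (exact permutation p = 0.0286 each, adjusted p = 0.19 each). A p of 0.0286 is the smallest that 4 libraries against 4 allow. None of the 20 ratio tests passed after adjustment. With this floor and 20 tests, a few ratios alone could not have passed, so the adjusted values say little about whether either miRNA changed relative to its host.

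**Figure D4:**
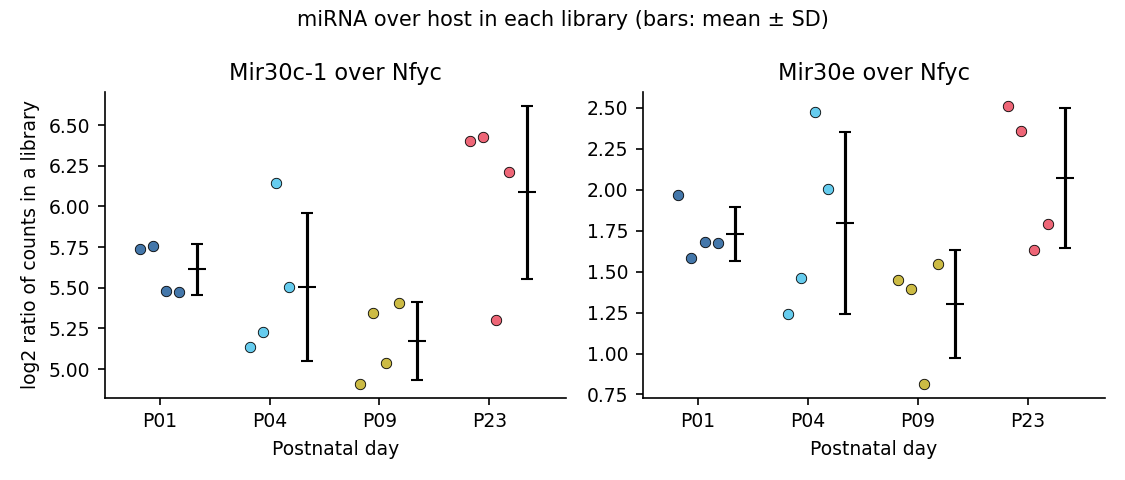
log2 ratios of the counts of Mir30c-1 (left) and Mir30e (right) over Nfyc in each library (y axes, counts plus 0.5, not starting at 0) at 4 postnatal days (x axes), with the mean ± SD of 4 libraries. Of the P23 libraries of Mir30c-1, 3 lie above all of P09, and the other, at 5.30, lies among them.

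The ratio of the neighbors Mir30c-1 and Mir30e did not move detectably. Their log2 ratio was 3.89 ± 0.192 in P01 libraries, 3.71 ± 0.168 in P04 libraries, 3.87 ± 0.317 in P09 libraries and 4.02 ± 0.318 in P23 libraries, and in P23–P09 the difference was 0.14 (SE 0.22, exact permutation p = 0.543, adjusted p = 0.776). That of Mir30b over Mir30a, which lie on different chromosomes, differed by -0.0012 in P23–P09 (SE 0.21, exact permutation p = 1, adjusted p = 1). A missed threshold does not show that the genes of a pair act alike.

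Other miRNAs that lie within host genes give a comparison for the pairing of Mir30c-1 with Nfyc. Of 33 such pairs listed from general knowledge, both genes of 27 were tested. In P23–P09, 12 of the 27 miRNAs passed the test, where 24.8% of the tested miRNA genes rose and 19.4% fell. With 6 of these the host passed in the same direction, with 0 in the opposite direction, and with 6 the host did not pass. Of all tested genes 8.29% rose and 7.45% fell. The split differed between comparisons. In P23–P01, again with 12 miRNAs past the test, these numbers were 9, 2 and 1. In P23–P09, Mir486, a miRNA of muscle and red cells, rose with Ank1, which encodes an ankyrin, at log2 fold changes of 1.21 and 1.09. Mir149 rose with Gpc1, a heparan sulfate proteoglycan of the cell surface, at 1.17 and 0.96. Mir208b fell with Myh7, the fetal myosin heavy chain of the mouse ventricle, at -1.88 and -1.12, and Mir335 with the imprinted Mest at -1.24 and -3.15.

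Mir30c-1 and Mir30e were like the pairs whose host did not pass in P23–P09. Mir26b had a log2 fold change of 0.99 in P23–P09, beside 0.10 for its host Ctdsp1 (adjusted p = 0.789 from edgeR). Mir128-1 had 1.07, beside -0.15 for R3hdm1 (adjusted p = 0.477 from edgeR). Mir26a-1 had 1.11, beside -1.20 for Ctdspl, which did not pass (adjusted p = 0.052 from edgeR). Mir378a, within the metabolic coactivator gene Ppargc1b, had 1.06, beside -0.39 for its host (adjusted p = 0.0292 from edgeR). A host that did not pass may still have changed.

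**Figure D5:**
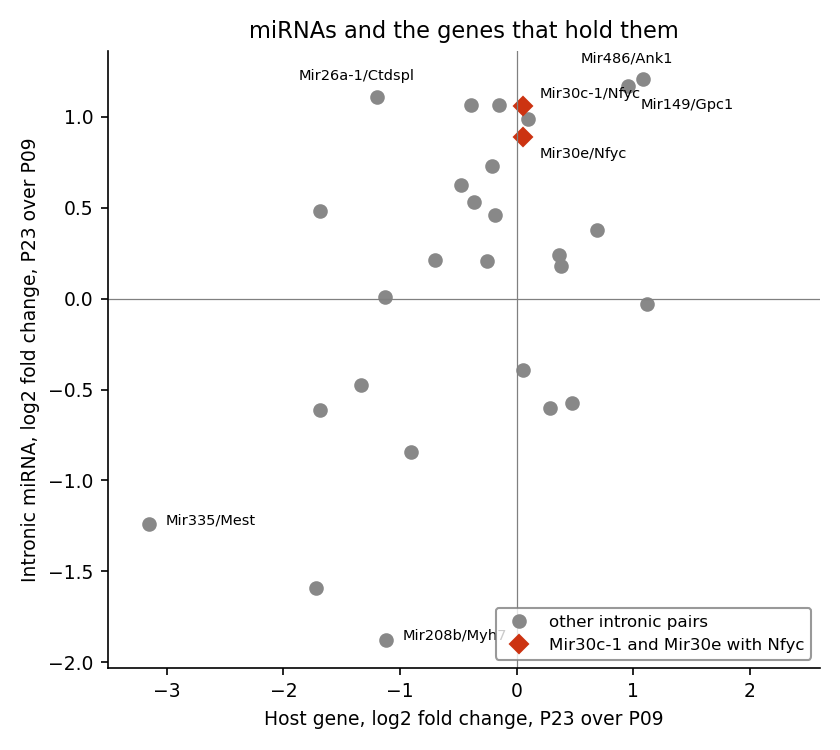
log2 fold changes in P23 over P09 of 29 miRNAs (y axis) against those of the genes that hold them (x axis), with 1 point per pair. The red diamonds are Mir30c-1 and Mir30e, at 1.06 and 0.89 on the y axis, and stand at 0.06 on the x axis, while Mir486 with Ank1 is at the upper right and Mir208b with Myh7 at the lower left.

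The miRNA genes whose log2 CPM ran most like each Mir30 gene over the 16 libraries were partly the same. For Mir30c-1 these were Mir26b, Mir149, Mir26a-1 and Mir151 (Pearson r of 0.92, 0.92, 0.92 and 0.91) and Mir30a (0.89). For Mir30a they were Mir190a, Mir151, Mir872, Mir30c-1 and Mir30e (0.93, 0.92, 0.90, 0.89 and 0.89), and for Mir30b Mir30c-1, Mir23a, Mir151, Mir145a and Mir149 (0.88, 0.87, 0.86, 0.83 and 0.83), each out of 205 tested miRNA genes. Among the 4 Mir30 genes r was 0.63 to 0.89. The libraries also share their total miRNA content, and with each gene as a share of the miRNA counts the same correlations were -0.11 to 0.60.

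For Nfyc, r was 0.15 with Mir30c-1 and 0.20 with Mir30e over the 16 libraries, and at its few counts a weak r is no finding. The genes most like it among 10741 tested were Gstm5, Tcfl5, Sart3, Kcnma1 and Fbxo10 (0.85, 0.78, 0.77, 0.72 and 0.71), of which Gstm5, Tcfl5, Sart3 and Fbxo10 had mean normalized counts under 31 on every day. These correlations are a description of 16 libraries that share their days.

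The other subunits of NF-Y were as sparse as Nfyc. Nfya, which makes the sequence contact with the CCAAT box, had 19.2 normalized counts at P23 and 9.50 at P01, a log2 fold change of 1.06 (adjusted p = 0.00762 from edgeR), where 17.7% of all tested genes rose and 19.4% fell. It was the 1 of 3 subunits that passed the test in P23–P01. Nfyb had a log2 fold change of -0.23 (adjusted p = 0.573 from edgeR) and Nfyc one of -0.15 (adjusted p = 0.619 from edgeR), with a 95% interval of -0.61 to 0.31. In each of the other 5 comparisons 0 of the 3 subunits passed on the scaling by all genes. On that by miRNA genes Nfya passed in P23–P01 too, and Nfya and Nfyb rose in P09–P01 (log2 fold changes of 1.68 and 0.98), where 37.5% of all tested genes rose and 5.59% fell.

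The 250 bases before each of 3 RefSeq starts of Nfyc in GRCm38.p6 were searched for the NF-Y motif CCAAT on both strands. These starts lie inside the span given above for Nfyc. The bases before its outer end at base 120831579 were not searched. The 3 windows held 0, 4 and 2 matches. Of 32851 such windows over all genes, 33.85% held at least 1 match and 0.840% held at least 4. The window with 4 is shown because it lies before 1 of these starts of the gene that Mir30c-1 and Mir30e share. It is inside the span given above for Nfyc, and has CCAAT, or ATTGG where it is on the other strand, in capitals.
Nfyc, chr4:120825210-120825459, minus strand: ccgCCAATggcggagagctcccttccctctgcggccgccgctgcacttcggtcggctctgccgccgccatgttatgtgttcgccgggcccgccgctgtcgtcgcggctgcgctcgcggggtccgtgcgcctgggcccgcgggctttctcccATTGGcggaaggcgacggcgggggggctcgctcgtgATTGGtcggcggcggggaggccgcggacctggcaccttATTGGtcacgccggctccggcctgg
A match is a run of letters and not a site of binding.

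Genes of the G2 and M phases that NF-Y is known to bind were lower at P23. Of 12 on the list, 11 were tested. In P23–P01 all 11 tested fell and 0 rose, where 19.4% of all tested genes fell, with a median log2 fold change of -4.12 beside 0.0026 over all tested genes. In P23–P09 10 of the 11 fell, where 7.45% of all tested genes did. In P09–P01 3 of the 11 fell, where 13.9% of all tested genes did. On the scaling by miRNA genes 11, 10 and 0 of the 11 fell in these comparisons, where 10.0%, 6.16% and 5.59% of all tested genes did. Cdk1, the kinase that starts mitosis, had 1.44 normalized counts at P23 and 46.3 at P01, and Ccnb1, its cyclin partner, 0.242 at P23 and 24.5 at P01. The mitotic kinase Plk1 had 0.749 at P23 and 25.4 at P01, and Ube2c, which marks proteins for destruction in mitosis, 1.95 at P23 and 46.7 at P01. Nfyc stood at 24.3 and 27.2 normalized counts on these days.

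Genes known as targets of miR-30 in other work were set beside all tested genes. Of 22 on the list, 19 had enough counts to be tested. In P23–P09, 2 of the 19 fell and 0 rose, where 7.45% of all tested genes fell and 8.29% rose. These were Lox, an enzyme that crosslinks collagen and elastin, with a log2 fold change of -1.25 (adjusted p = 0.00183 from edgeR), and Gnai2, an inhibitory G protein subunit, with -0.46 (adjusted p = 0.00329 from edgeR). On the scaling by miRNA genes Lox passed and Gnai2 did not (adjusted p = 0.0712 from edgeR). The median of the list was -0.06, beside -0.0020 over all tested genes. Ccn2, the connective tissue growth factor, had 30.4 normalized counts at P23 and 61.7 at P09 but did not pass (adjusted p = 0.105 from edgeR). The 5 fibroblast markers, each counted in every library, summed to 405 to 527 CPM in P23 libraries and 665 to 736 CPM in P09 libraries, and their part in the values of Lox and Ccn2 was not tested.

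In P23–P01, 4 of the 19 target genes fell and 3 rose, where 19.4% of all tested genes fell and 17.7% rose. Those that fell were Runx2, a transcription factor of bone (-4.24), Lox (-1.39), Tnrc6a, a partner of Argonaute (-0.87), and Gnai2 (-0.86), each as a log2 fold change. Those that rose were Galnt7, which starts O-linked sugar chains (1.15), Dnm1l, which divides mitochondria (0.62), and Ppp3cb, a catalytic subunit of calcineurin (0.53). On the scaling by miRNA genes 1 of the 19 fell and 6 rose, where 10.0% of all tested genes fell and 32.6% rose. The fall of Runx2 and the 3 rises passed there, and Lox, Tnrc6a and Gnai2 did not (log2 fold changes of -0.84, -0.27 and -0.25). In P09–P01 the log2 fold change of Runx2 was -3.20 (adjusted p = 4.21e-10 from edgeR), and 3 of the 19 fell and 1 rose, where 13.9% of all tested genes fell and 10.3% rose. On the scaling by miRNA genes 1 of the 19 fell and 7 rose, near the 5.59% of all tested genes that fell there and the 37.5% that rose.

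Of 16 genes that make or carry miRNAs, 14 were tested. In P23–P01, 6 fell and 2 rose, where 19.4% of all tested genes fell and 17.7% rose. On the scaling by miRNA genes 4 fell and 4 rose, where 10.0% of all tested genes fell and 32.6% rose. In P09–P01, 6 fell and 2 rose, where 13.9% of all tested genes fell and 10.3% rose. With miRNA scaling 3 fell and 6 rose, where 5.59% of all tested genes fell and 37.5% rose. Lin28b, which blocks the processing of let-7, had a log2 fold change of -3.99 in P23–P01, Ran, which serves the export of hairpins from the nucleus, -2.22, the Argonaute gene Ago4 -1.89, and Dgcr8, the partner of Drosha, -1.87. Tnrc6b and Ago3 rose, with log2 fold changes of 1.21 and 1.06. These 6 genes passed in the same direction on both scalings. In P23–P09 1 gene rose, Tnrc6b (log2 fold change 0.74, adjusted p = 9.58e-05 from edgeR), and 0 fell, where 8.29% of all tested genes rose and 7.45% fell. On the scaling by miRNA genes Tnrc6b did not pass (adjusted p = 0.0648 from edgeR). Tnrc6a stands on this list and on that of the targets.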

How the data were processed

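Ventricular RNA of 16 mouse pups was made into libraries with the SMARTer smRNA-Seq kit, in which polyadenylated RNA is copied to cDNA and amplified by PCR, without molecular identifiers. The authors trimmed reads with Trimmomatic after bcl2fastq, used STAR for alignment to GRCm38.p6 and featureCounts for counts of each gene. The deposited values are raw counts and not normalized. Versions, strand setting and the handling of reads with several matches were not stated in the paper or the labels. Libraries are named by day and animal number as in the table, and 1 column without a matching sample was not used. Of the 53801 genes, 53620 were given a symbol, and 1197 were miRNA genes.

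Counts were tested with edgeR (glmQLFit, robust, and glmQLFTest, TMM) in 1 fit of all 16 libraries after filterByExpr (minimum count 10, minimum total 15). CPM is the library-scaled count with TMM factors, and log2 CPM had a prior count of 2. The steps were checked on simulated data. Alternatives were miRNA scaling, scaling without rRNA and mitochondrial genes, DESeq2, no filter, no mean count minimum, 2-group fits and leaving out each library. Ratios of counts were tested by two-sided exact permutation over 70 assignments, adjusted over 20 tests. Replicates differed by more than sampling noise in all 24 pairs of 1 day (chi-square per degree of freedom 5.05 to 27.9). Intervals of counts cover counting error only. Named were all members, the 5 genes most like each of Mir30a, Mir30b, Mir30c-1 and Nfyc, and, of each list, up to 4 genes a direction past the test by size in P23–P01. Other list genes and host pairs were named after their values were seen. The members and lists were chosen with earlier results of these data known. The R tools were DESeq2 1.42.0, limma 3.58.1 and edgeR 4.0.16 under R 4.3.3. Python 3.11.15 was used with matplotlib 3.10.9, scipy 1.17.1, pandas 2.3.3 and numpy 2.4.6.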

Additional observations from a re-analysis of the deposited data

Results flagged for a closer look

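In 40 groups of 4 values of these genes, 1 sample far from the other 3 of its day was found in 2, and chance gives about 1 in 20. Nfyc had 27.89 normalized counts in P23 replicate 6, where the other P23 libraries had 22.987 to 23.267. The log2 ratio of Mir30c-1 over Mir30e was 4.1725 in P01 replicate 5, where the other P01 libraries had 3.7742 to 3.7999, and Mir30e had 46 counts in that library.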

How the results depend on the processing

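No paired analysis was possible because the columns carry animal numbers of different pups and not the replicate numbers of the labels. On the miRNA scaling, 2 members were called in P23–P01 in place of 0. Signs reversed there in P04–P01 (Mir30b 0.16, Mir30c-1 0.14), P09–P04 (Mir30b 0.18, Nfyc 0.20), P23–P09 (Nfyc -0.052), P09–P01 (Mir30a 0.18, Mir30b 0.34, Mir30c-1 0.025, Mir30e 0.037, Nfyc 0.50), P23–P04 (Nfyc 0.15) and P23–P01 (Nfyc 0.45). None of these log2 fold changes passed on the miRNA scaling. Those of Mir30c-1 and Mir30e in P09–P01 had passed downward on the scaling by all genes. Without the filter on low counts, Mir30b (0.037) and Mir30c-1 (0.018) in P04–P01 and Nfyc (-0.012) in P23–P09 turned sign, and the fall of Mir30e in P09–P01 was lost (adjusted p = 0.0197 from edgeR). With DESeq2, Mir30a in P04–P01 was at -0.0091. Without the mean count minimum, 2 members were called in P23–P09, Mir30c-1 and Mir30e. Scaling without rRNA and mitochondrial genes changed 0 calls and 0 signs of the 30 fold changes. In a fit of the 2 days alone, Mir30a also fell in P09–P01 (log2 fold change -0.58, adjusted p = 0.00165 from edgeR), as it did without P04 replicate 4 or P23 replicate 6 (adjusted p = 0.00689 and 0.00599 from edgeR).

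With each library left out, 1 to 3 members were called in P23–P09 and 0 in each other comparison. Signs turned only where the log2 fold change was small: the ranges in P04–P01 were -0.19 to 0.12 for Mir30a, -0.19 to 0.10 for Mir30b, -0.18 to 0.015 for Mir30c-1, -0.0050 to 0.21 for Mir30e and -0.032 to 0.17 for Nfyc, that of Nfyc in P23–P09 was -0.035 to 0.17, and that of Mir30e in P23–P04 was -0.030 to 0.23. For the ratios the alternatives gave values and no test. The miRNA scaling of the gene lists was chosen after seeing the data. Depth limits Nfyc most, at 15 to 48 counts per library, and diet, cell makeup and age cannot be told apart.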
